A study of Mus musculus with 12 samples.

Results

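B cell and immunoglobulin genes are represented here by 8 genes chosen by symbol: *Ighm*, *Ighg2b*, *Ighg2c*, *Igkc*, *Jchain*, *Cd79a*, *Cd79b* and *Ms4a1*. All 8 symbols were listed in every tissue, among 22252 genes in gonadal white adipose tissue (WAT) and in liver and 22273 in gastrocnemius muscle, so none was absent. In gonadal WAT all 8 reached 1 CPM (counts per 1000000 expected counts of a library) in at least 1 library. Only *Ighm* and *Ighg2c* did so in gastrocnemius, and only *Ighm*, *Igkc* and *Jchain* in liver.

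The libraries came from male C57BL/6J mice that carried floxed alleles of *Nr3c1*, the glucocorticoid receptor (GR) gene. GRmKO mice also carried *Acta1*-Cre, which removes exon 3 in myofibres and is not meant to act in B cells, adipocytes or hepatocytes, whereas GRf/f mice had no Cre. From 8 weeks of age both genotypes drank 1% ethanol with corticosterone (CORT) at 100 µg/mL or 1% ethanol alone (vehicle) for 4 weeks. Each of the 12 libraries, 1 for each tissue, genotype and treatment, was made from the pooled RNA of 3 mice, so no spread between mice was measured and no p-value is given. The intervals printed here are 95% intervals of counting error only.

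The libraries held 19394572 to 20940660 expected counts, so that 3 counts, taken as the lowest readable level, corresponded to 0.143 to 0.155 CPM. *Nr3c1* stood at 113 and 90.4 CPM in gastrocnemius of vehicle- and CORT-treated GRf/f mice, and at 46.4 and 35.5 CPM in GRmKO mice, in a muscle that also holds cells without Cre. In gonadal WAT and liver, where Cre is not active, *Nr3c1* ranged from 111 to 158 CPM and from 45.2 to 60.8 CPM. The 6 adipocyte genes examined summed to 23300 to 25700 CPM in gonadal WAT, against at most 622 CPM in gastrocnemius, which matched the tissue labels. *Ptprc*, the pan-leukocyte antigen CD45, was listed at 0 in gonadal WAT of CORT-treated GRf/f mice, and the macrophage integrin *Itgam* at 0 in that of vehicle-treated GRf/f mice, although other leukocyte genes were high in the same libraries. Every row carries only 1 transcript identifier, so such zeros are given only as listed.

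An antibody is built from paired heavy and light chains. In the mouse, *Ighm* encodes the heavy chain of IgM, the first antibody class a B cell makes, *Ighg2b* and *Ighg2c* encode heavy chains of IgG classes reached by class switching, and *Igkc* encodes the kappa light chain that most mouse antibodies carry. On the B cell surface the membrane form of the heavy chain signals through CD79A and CD79B, and MS4A1 (CD20) is a membrane protein of mature B cells that plasma cells lose. Plasma cells secrete the antibody, and the J chain, encoded by *Jchain*, links IgM and IgA into their polymeric forms.

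The 3 heavy chain genes lie on the minus strand of chromosome 12 on GRCm38, *Ighm* at chr12:113418558-113422730, *Ighg2b* at chr12:113302965-113307933 and *Ighg2c* at chr12:113285325-113288932. *Igkc* is a single exon at chr6:70726435-70726966. The genes outside the immunoglobulin loci are *Jchain* at chr5:88519809-88527891, *Cd79a* at chr7:24897381-24902197, *Cd79b* at chr11:106311341-106314762 and *Ms4a1* at chr19:11249675-11266241. One property of the deposited entries bears on *Ighm*. The entry kept for *Ighm* was Ighm-201 (ENSMUST00000103426, 1493 bases) in gonadal WAT and liver, which ends with the secretory tail, but Ighm-202 (ENSMUST00000177715, 1698 bases) in gastrocnemius, which ends with the membrane exons. The 2 transcripts share their first 1305 bases, from exons 1 to 4, and differ in the 188 and 393 bases that follow. Whether a deposited value counts the named transcript alone or all transcripts of its gene was not settled, so the identifier does not by itself tell which form a value measured. The coding sequence that separates the 2 transcripts is shown because the entries of the tissues differ there. Capitals mark bases found in only 1 of the 2 transcripts, namely the end of exon 4 of Ighm-201 at chr12:113420870-113420940 and exon 5 of Ighm-202 at chr12:113418953-113419068 (GENCODE M21, minus strand, GRCm38).
Ighm-201, secretory end: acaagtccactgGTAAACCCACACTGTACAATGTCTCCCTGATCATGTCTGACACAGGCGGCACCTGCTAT
Ighm-202, membrane exon: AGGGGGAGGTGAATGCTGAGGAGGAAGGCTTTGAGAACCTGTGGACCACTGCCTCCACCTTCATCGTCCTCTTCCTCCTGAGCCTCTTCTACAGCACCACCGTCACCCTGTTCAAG

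**Figure D1:**
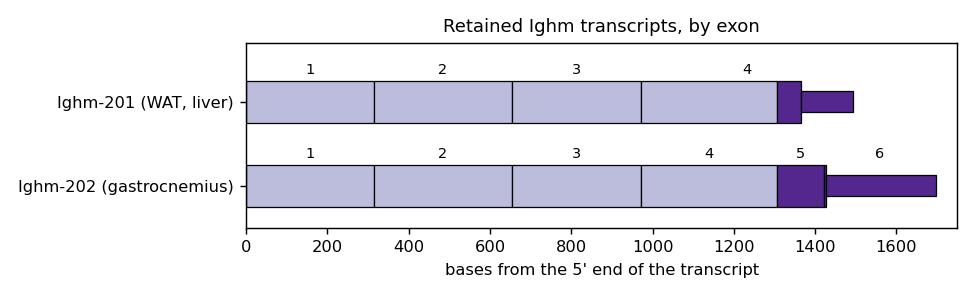
The plot draws the exons of both retained *Ighm* transcripts along their length in bases from the 5′ end, with light boxes for shared bases, dark boxes for bases of 1 transcript only and thin boxes for untranslated bases. The shared part covers the first 1305 bases, after which Ighm-201 has 188 bases and Ighm-202 has 393.

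The *Ighg2b* and *Ighg2c* genes are close relatives, and reads from shared stretches could be assigned to either. Of the 1084 31-base words of Ighg2b-201, the *Ighg2b* entry in gonadal WAT and liver, 138 (12.7%) also occurred in another gene, 125 of them in *Ighg2c*. Of the 1081 words of Ighg2c-202, the *Ighg2c* entry in every tissue, 126 (11.7%) were shared. The entries of *Ighm*, *Igkc*, *Jchain*, *Cd79a*, *Cd79b* and *Ms4a1* shared no such word with another gene. The hinge exons, exon 2 of Ighg2b-201 at chr12:113307261-113307326 and of Ighg2c-202 at chr12:113288263-113288325, are shown as the stretch in which these genes are readily told apart, with capitals running from the first to the last base that differs.
Ighg2b hinge exon: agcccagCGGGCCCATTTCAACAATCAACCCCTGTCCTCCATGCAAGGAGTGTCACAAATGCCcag
Ighg2c hinge exon: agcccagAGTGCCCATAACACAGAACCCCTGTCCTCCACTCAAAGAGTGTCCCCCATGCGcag

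To see how CORT affected B cell and immunoglobulin transcripts in gonadal WAT, CORT- and vehicle-treated mice were compared within each genotype. In GRf/f mice, *Ighm* was higher with CORT while the other 7 genes were lower. In GRmKO mice, the light chain, the J chain and the B cell surface genes were again lower, *Ighg2b* was higher, and *Ighm* stayed under the threshold. A gene was called when its log2 change, computed after adding 0.5 CPM to both libraries, was at least 1 in size and the higher library held at least 1 CPM. In bulk tissue, fewer cells of a type and less RNA per cell cannot be told apart.

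*Ighm* stood at 315 CPM in vehicle-treated and 873 CPM in CORT-treated GRf/f mice, and at 422 and 672 CPM in the corresponding GRmKO mice. Both CORT libraries were therefore above both vehicle libraries. The ratio was 2.78 (2.70 to 2.86) in GRf/f mice, a log2 change of 1.47 that passed the threshold, and 1.59 (1.55 to 1.64) in GRmKO mice, a log2 change of 0.67 that did not.

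*Ighg2b* stood at 17.1 CPM in vehicle-treated GRf/f mice, 0.201 CPM in CORT-treated GRf/f mice, 0.700 CPM in vehicle-treated GRmKO mice and 6.09 CPM in CORT-treated GRmKO mice. The high libraries thus carried opposite treatments in the 2 genotypes. With CORT the gene was 85.2-fold lower (33 to 315) in GRf/f mice, where 4 counts remained, and 8.71-fold higher (4.93 to 16.2) in GRmKO mice. *Ighg2c* stood at 10.8, 0.803, 0.810 and 0.0495 CPM in the same order, so that only the library of vehicle-treated GRf/f mice was above 1 CPM. It was 13.5-fold lower (8.11 to 24.0) with CORT in GRf/f mice. In GRmKO mice both libraries were under 1 CPM, at 16 counts and 1 count, and the gene was not assessed.

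*Igkc*, the kappa light chain, stood at 78.3 and 11.6 CPM in vehicle- and CORT-treated GRf/f mice and at 68.6 and 18.3 CPM in GRmKO mice. Both CORT libraries were below both vehicle libraries. It was 6.74-fold lower (5.88 to 7.79) with CORT in GRf/f mice and 3.74-fold lower (3.34 to 4.21) in GRmKO mice. *Jchain*, expressed by antibody-secreting cells, stood at 12.7, 2.51, 10.9 and 1.78 CPM in the same order of libraries. It was 5.07-fold lower (3.73 to 7.01) in GRf/f mice and 6.11-fold lower (4.28 to 8.95) in GRmKO mice. The vehicle and CORT libraries of *Jchain* did not overlap. How many of all genes separate in this way was not counted, so such order, for this and the other genes here, is description only.

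*Cd79a*, a signalling chain of the B cell receptor, stood at 4.81 and 0.552 CPM in GRf/f mice and at 7.19 and 1.49 CPM in GRmKO mice. It was 8.71-fold lower (4.66 to 18.0) with CORT in GRf/f mice and 4.84-fold lower (3.25 to 7.44) in GRmKO mice. *Cd79b*, its partner chain, stood at 3.04, 0.703, 3.47 and 1.14 CPM and was 4.32-fold lower (2.40 to 8.42) and 3.05-fold lower (1.89 to 5.15). Each CORT library lay below each vehicle library for both chains. *Ms4a1* stood at 1.85, 0.10, 3.65 and 0.940 CPM, again with the CORT libraries lowest. It was 18.5-fold lower (4.76 to 158) in GRf/f mice, where 2 counts remained, and 3.88-fold lower (2.31 to 6.80) in GRmKO mice.

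**Figure D2:**
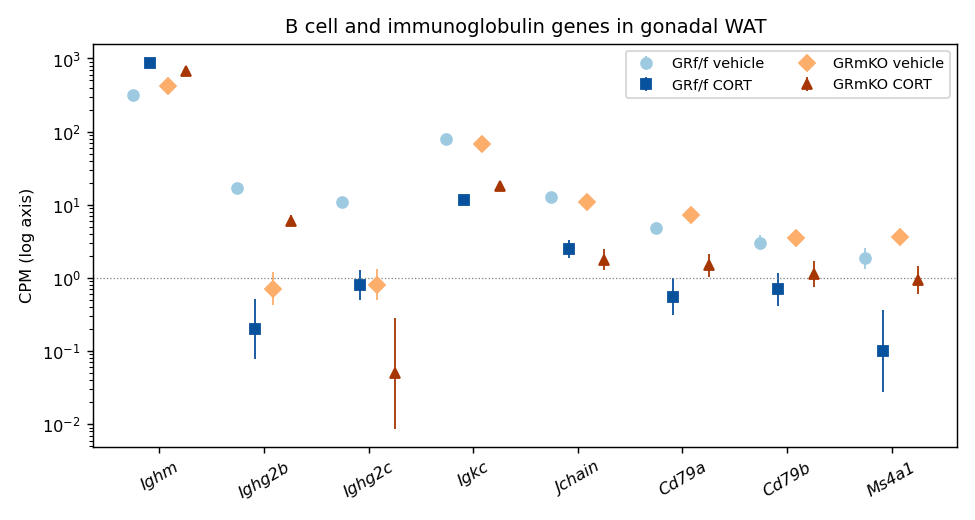
The plot shows the CPM of the 8 genes in the 4 libraries of gonadal WAT on a log axis, with 95% counting intervals as vertical lines and a dotted line at 1 CPM. *Ighm* is highest in CORT-treated GRf/f mice at 873 CPM, *Igkc*, *Jchain*, *Cd79a*, *Cd79b* and *Ms4a1* are lower in both CORT libraries, and *Ighg2b* is high in vehicle-treated GRf/f mice and in CORT-treated GRmKO mice.

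Counted against all genes, 1 of the 8 was higher and 7 were lower with CORT in GRf/f mice, where 6.83% of 13232 tested genes were higher and 9.86% lower. The median log2 change of the 8 genes was -2.24, beside -0.07 for all tested genes. The 8 genes were chosen with earlier results of these data known, so the shares set beside them are no measure of enrichment. Of the 7 lower genes, *Ighg2b*, *Ighg2c*, *Cd79a*, *Cd79b* and *Ms4a1* reached 1 CPM in the vehicle library alone, so their entry into the count depended on that library. In GRmKO mice, 7 of the 8 genes were assessed, of which 1 was higher and 5 were lower, where 4.74% of 13162 tested genes were higher and 7.02% lower. Their median log2 change was -1.53, beside -0.13 for all tested genes. Of these genes, *Ms4a1* reached 1 CPM in the vehicle library alone and *Ighg2b* in the CORT library alone. Scaling by trimmed mean of M values (TMM) moved the share of higher genes among all those called in this comparison from 40.3% to 51.1%, and left the calls of the 8 genes as they were.

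The study's own caller, NOISeq, weighs the size of a difference as well as its ratio and leaves out genes at 0 in any library of the tissue. At a probability of at least 0.9, which is no p-value, it called *Ighm*, *Ighg2b*, *Ighg2c*, *Igkc* and *Jchain* with CORT in gonadal WAT of GRf/f mice, 5 of the 8 genes beside 7.27% of 14218 genes. In GRmKO mice it called *Igkc* and *Jchain*, 2 of the 8 beside 4.14%. *Cd79a*, *Cd79b* and *Ms4a1* were not called by NOISeq in either genotype, so that their calls rest on the ratio at levels of a few CPM.

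Other genes of antibodies and B cells in gonadal WAT were taken from fixed lists. Of the other 9 constant region genes, 6 could be assessed with CORT in GRf/f mice and all 6 were lower, whereas 3 of 6 were lower in GRmKO mice and none was higher in either. Their median log2 changes were -3.07 and -1.08. *Iglc1*, a lambda light chain, stood at 9.43, 0.10, 3.08 and 0.40 CPM in vehicle- and CORT-treated GRf/f and then GRmKO mice. *Igha*, the heavy chain of the mucosal class IgA, stood at 7.57, 0.61, 3.23 and 3.21 CPM, so the GRmKO libraries were nearly level, and *Ighd*, co-expressed with IgM on naive B cells, at 5.26, 1.76, 4.66 and 2.33 CPM. *Ighg3* fell from 5.44 CPM to a listed 0 in GRf/f mice, and *Ighg1* from 4.35 CPM to a listed 0. The lambda genes are close copies of one another, and how reads were split among them is uncertain.

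Among 22 further B cell genes, 9 of 13 assessed were lower with CORT in GRf/f mice and 8 of 16 in GRmKO mice, with none higher in either and median log2 changes of -1.25 and -0.91. *Bank1*, a B cell receptor scaffold, stood at 1.65, 0, 2.60 and 1.02 CPM, and *Fcer2a*, the low-affinity IgE receptor CD23, at 1.15, 0, 1.67 and 0 CPM. The most abundant genes of this list did not follow that direction. *Cd37*, a tetraspanin that other leukocytes also express, stood at 10.2, 15.9, 11.5 and 17.8 CPM, and *Blnk*, an adaptor also present in macrophages, at 5.39, 9.12, 7.71 and 8.42 CPM, and neither was called. Among 10 plasma cell genes, 2 of 8 assessed were lower in each genotype and none was higher. *Irf4*, needed for plasma cell formation and also expressed by adipocytes, stood at 9.54, 4.42, 23.3 and 9.98 CPM, and *Xbp1*, a factor of secretory cells in general, at 314, 203, 368 and 218 CPM without being called. *Mzb1*, an antibody-folding cofactor, stood at 0.90, 0.05, 1.21 and 0.05 CPM and was called lower in GRmKO mice, while both GRf/f libraries were under 1 CPM.

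Of 10 factors for B cell survival and homing, 2 of 8 assessed were higher and 4 were lower with CORT in GRf/f mice, and 2 of 7 were lower in GRmKO mice. *Cxcl12*, a chemokine that retains B cells and their precursors, stood at 53.3, 14.5, 59.4 and 15.9 CPM and was called lower in both genotypes. *Cxcl13*, the chemokine that draws B cells into follicles and is also made by macrophages, stood at 8.22, 24.7, 16.8 and 25.7 CPM and was called higher in GRf/f mice. *Tnfsf13*, encoding the plasma cell survival factor APRIL, stood at 1.08, 5.21, 2.89 and 4.47 CPM. Of 8 antibody receptor genes, none of the 6 assessed in GRf/f mice or the 7 assessed in GRmKO mice was called. *Fcgrt*, the neonatal Fc receptor, led that list at 171 to 230 CPM.

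The values of *Ighm* parted from those of the light chain and the B cell surface genes. Per kilobase of transcript, the level of *Ighm* was 1.43 times that of *Igkc* in vehicle-treated GRf/f mice and 26.8 times in CORT-treated GRf/f mice. The corresponding figures in GRmKO mice were 2.19 and 13.1. With the lambda genes added, the level of *Ighm* over kappa and lambda together was 1.22, 26.2, 1.97 and 10.6 in the same order. The *Igkc* entry is only 532 bases long, which makes its level per kilobase the least certain of these. *Ighm* made up 71.0% of the summed CPM of the 8 genes in vehicle-treated and 98.1% in CORT-treated GRf/f mice, and 81.6% and 95.7% in GRmKO mice.

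Genes of other leukocytes were read beside *Ighm*. Of 10 macrophage genes, 5 were higher with CORT in GRf/f mice and 1 in GRmKO mice, none was lower, and their summed level went from 1190 to 2700 CPM and from 1470 to 2620 CPM. *Itgam* was among the 5, through its listed 0 under vehicle. Of 8 genes of leukocytes in general, 3 were lower and none was higher in GRf/f mice, and none was called in GRmKO mice. Their sums were 293, 359, 320 and 375 CPM in vehicle- and CORT-treated GRf/f and then GRmKO mice. *Lyz2*, the macrophage lysozyme, stood at 436, 1137, 599 and 1144 CPM, and the CPM of *Ighm* was 0.722, 0.768, 0.705 and 0.587 times that of *Lyz2*. That ratio was less even elsewhere, at 0.932, 0.186, 0.531 and 0.545 in gastrocnemius and 0.0827, 0.051, 0.146 and 0.0669 in liver, in the same order of libraries. By contrast, T cell genes were lower with CORT in 11 of 11 and 8 of 10 assessed, and their summed level went from 30.4 to 3.40 CPM and from 22.8 to 5.40 CPM. Genes of antigen presentation by MHC class II, which B cells, macrophages and dendritic cells use, were lower in 10 of 10 and 9 of 9 assessed. The class II invariant chain *Cd74* stood at 641, 83.6, 767 and 163 CPM. The part of macrophages, T cells or other leukocytes in the *Ighm* and *Igkc* values was not tested.

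**Figure D3:**
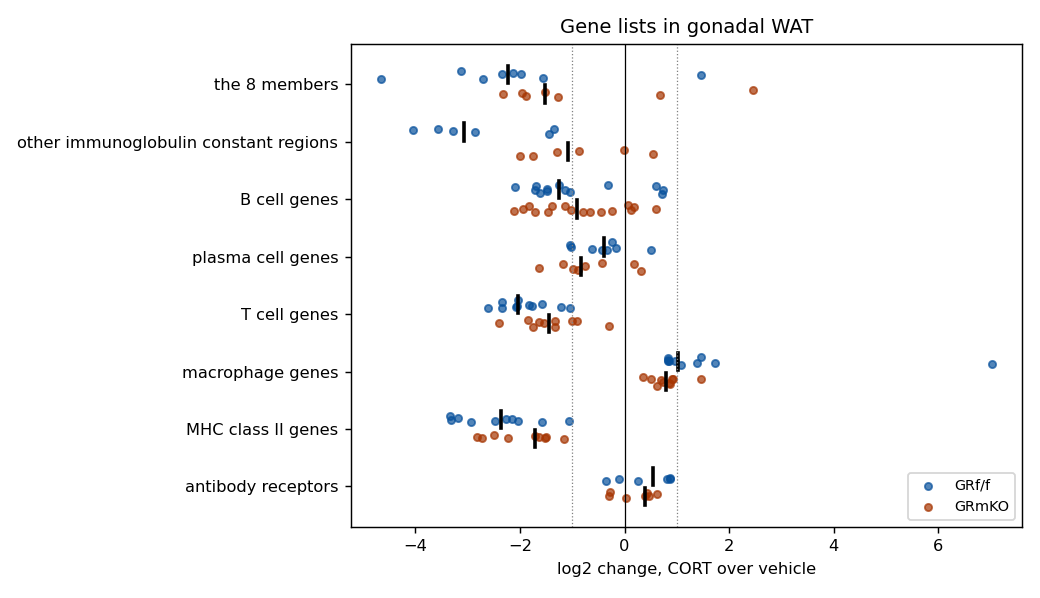
The plot shows the log2 change with CORT of each assessed gene in gonadal WAT, by list and genotype, with a black bar at each median and dotted lines at a log2 change of 1 in either direction. The medians of MHC class II, T cell and other immunoglobulin genes lie below 0 in both genotypes and those of macrophage genes above 0, and the point at 7.03 is *Itgam*, which was listed at 0 in vehicle-treated GRf/f mice.

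Marker genes of blood, lymph node, epididymis, muscle and liver were read in the same libraries. The 6 red cell genes summed to 4380, 2160, 4440 and 5680 CPM in vehicle- and CORT-treated GRf/f and then GRmKO mice, with the library of CORT-treated GRf/f mice lowest. Of 8 genes of lymph node stroma and vessels, 1 of 5 assessed was higher and 3 were lower in GRf/f mice, and 2 of 5 were lower in GRmKO mice. *Ccl21a*, a chemokine of lymph node stroma and lymphatic vessels, stood at 26.6, 9.77, 11.2 and 16.1 CPM. Of 8 epididymis genes only *Adam7* reached 1 CPM, at 1.10 CPM in vehicle-treated GRf/f mice, the library with the most *Ighg2b* and *Ighg2c*, and it was listed at 0 in the other 3. Of 6 myofibre genes, 3 of 5 assessed were lower and 1 was higher with CORT in GRf/f mice, and 3 of 4 were lower and 1 was higher in GRmKO than in GRf/f mice under vehicle, the contrasts in which *Ighg2b* and *Ighg2c* were lower. The higher gene was *Acta1*, skeletal muscle actin, which stood at 37.4, 113, 199 and 103 CPM and made up most of the summed 44.8, 116, 200 and 104 CPM. With CORT in GRmKO mice the single assessed myofibre gene was not called, and between genotypes under CORT 1 of 2 was lower. Of 6 hepatocyte genes, 4 of 6 were higher in GRmKO than in GRf/f mice under CORT, as was *Ighg2b*, and 1 of 6 was higher with CORT in GRmKO mice, while none of 5 was called in either of the other contrasts. They summed to 53.0, 58.8, 66.9 and 106 CPM. The part of these genes in the values of the 8 genes was not tested.

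To see whether loss of GR in muscle was accompanied by a difference in gonadal WAT, GRmKO mice were compared with GRf/f mice under each treatment. Under vehicle, the IgG heavy chains were lower in GRmKO mice while the remaining genes were under the threshold. *Ighg2b* was 24.4-fold lower (14.2 to 44.7) and *Ighg2c* 13.4-fold lower (8.04 to 23.8), which made 2 of 8 genes lower and none higher, where 2.27% of 13155 tested genes were lower and 1.89% higher. Both reached 1 CPM in the GRf/f library alone, so their entry into the count depended on that library. The ratios of the other 6 genes, GRmKO over GRf/f, ran from 0.855 (0.710 to 1.03) for *Jchain* to 1.97 (1.30 to 3.01) for *Ms4a1*. The median log2 change was -0.01, beside 0.03 for all tested genes. Among the other constant regions, 4 of 7 assessed were lower, namely *Iglc1*, *Ighg3*, *Ighg1* and *Igha*. NOISeq also called *Ighg2b* and *Ighg2c*, beside 0.739% of genes.

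Under CORT, 6 of the 8 genes could be assessed and only *Ighg2b* was called, at a 30.4-fold higher level (11.5 to 113) in GRmKO mice, where 2.49% of 12915 tested genes were higher and 2.16% lower. The entry of *Ighg2b*, *Cd79a* and *Cd79b* depended on the GRmKO library alone, since each was under 1 CPM in the GRf/f library. *Cd79a* was 2.69-fold higher (1.31 to 5.95) in GRmKO mice, but its log2 change of 0.92 stayed under the threshold. NOISeq called none of the 8 genes there, beside 0.668% of genes. Among the other constant regions, 2 of 3 assessed were higher in GRmKO mice and none was lower, with a median log2 change of 1.75. They were *Igha* and, named after its values had been seen, the lambda gene *Iglc2*. *Igkc* was 1.58-fold higher (1.34 to 1.87) and *Ighm* stood at a ratio of 0.769 (0.752 to 0.787). The genotype comparisons and the treatment comparisons share libraries, so the single high library of *Ighg2c* and the pair of high libraries of *Ighg2b* enter more than 1 of them. Red cell genes were higher in GRmKO than in GRf/f mice under CORT in 6 of 6 assessed.

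In gastrocnemius, only the heavy chain genes *Ighm* and *Ighg2c* could be followed, and both were lower with CORT and higher in GRmKO mice. *Ighm*, listed here under the membrane-type transcript Ighm-202, stood at 61.7 and 12.6 CPM in vehicle- and CORT-treated GRf/f mice and at 140.2 and 59.5 CPM in GRmKO mice. It was 4.89-fold lower (4.25 to 5.62) with CORT in GRf/f mice and 2.36-fold lower (2.20 to 2.52) in GRmKO mice. The GRmKO library was 2.27-fold higher (2.12 to 2.43) than the GRf/f library under vehicle and 4.71-fold higher (4.10 to 5.42) under CORT. The CORT-treated GRmKO library and the vehicle-treated GRf/f library were nearly level.

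*Ighg2c* stood at 1.11, 0.207, 9.32 and 3.74 CPM in the same order, with both GRmKO libraries above both GRf/f libraries. With CORT it was 5.38-fold lower (1.83 to 21.5) in GRf/f mice, where 4.01 expected counts remained, and 2.49-fold lower (1.90 to 3.30) in GRmKO mice. It was 8.39-fold higher (5.39 to 13.7) in GRmKO mice under vehicle and 18.1-fold higher (6.79 to 68.1) under CORT. In gonadal WAT the same gene was 13.4-fold lower in vehicle-treated GRmKO mice.

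With CORT, both assessed genes were lower in GRf/f mice, where 6.4% of 12465 tested genes were lower and 4.66% higher, and both were lower in GRmKO mice, where 7.02% of 12585 were lower and 2.71% higher. Between genotypes, both were higher in GRmKO mice under vehicle, where 6.61% of 12700 tested genes were higher and 4.35% lower, and under CORT, where 6.16% of 12445 were higher and 6.77% lower. The entry of *Ighg2c* depended on the vehicle library alone with CORT in GRf/f mice, and on the GRmKO library alone between genotypes under CORT. NOISeq called *Ighm* in all 4 comparisons of gastrocnemius and *Ighg2c* in that of the genotypes under vehicle, beside 3.51% and 2.01% of 13543 genes with CORT in GRf/f and GRmKO mice, and 3.18% and 3.91% between genotypes under vehicle and CORT. The other 6 genes never reached 1 CPM. *Igkc* ranged from 0.342 to 0.687 CPM and *Jchain* from 0.147 to 0.655 CPM. *Cd79a* was listed at 0 in both GRf/f libraries, with intervals reaching 0.194 and 0.198 CPM, and at 0.150 and 0.0493 CPM in GRmKO mice. *Cd79b* stayed at or under 0.549 CPM, *Ighg2b* at or under 0.401 CPM and *Ms4a1* at or under 0.10 CPM. The level of *Ighm* per kilobase was 8.44 to 63.9 times that of *Igkc* in this tissue, where *Igkc* held only 6.97 to 13.8 expected counts. Over kappa and lambda together it was 15.7 and 6.69 in vehicle- and CORT-treated GRf/f mice, and 38.3 and 54.5 in GRmKO mice.

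Marker genes of other cell types also differed between the gastrocnemius libraries. Macrophage genes were higher in GRmKO mice under vehicle in 9 of 10, and their summed level was 176 and 177 CPM in vehicle- and CORT-treated GRf/f mice and 602 and 224 CPM in GRmKO mice. With CORT, 1 of 10 was higher and none was lower in GRf/f mice, whereas 10 of 10 were lower in GRmKO mice. Genes of leukocytes in general were lower with CORT in 2 of 8 and 7 of 8. MHC class II genes summed to 219, 11.5, 569 and 52.3 CPM, and were lower with CORT in 6 of 7 and 7 of 8 assessed. Hepatocyte genes, which muscle does not express, summed to 6.02, 8.82, 79.0 and 265 CPM, with *Alb* at 198 CPM in CORT-treated GRmKO mice. Red cell genes summed to 799, 774, 1330 and 2480 CPM. Adipocyte genes summed to 208, 622, 311 and 475 CPM. They were higher with CORT in 5 of 6 in GRf/f mice and in 4 of 6 in GRmKO mice, and none was lower. The part of these in the *Ighm* and *Ighg2c* values was not tested.

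In liver, *Ighm* and *Igkc* were low and were lower with CORT in both genotypes. *Ighm*, listed again under the secreted-type transcript Ighm-201, stood at 3.77 and 0.686 CPM in vehicle- and CORT-treated GRf/f mice and at 5.54 and 1.54 CPM in GRmKO mice. It was 5.49-fold lower (3.10 to 10.5) in GRf/f mice and 3.60-fold lower (2.42 to 5.52) in GRmKO mice. *Igkc* stood at 4.15, 0.822, 4.82 and 1.56 CPM and was 5.05-fold lower (2.95 to 8.98) and 3.09-fold lower (2.09 to 4.83). For both genes the CORT libraries lay below the vehicle libraries, and the level of *Ighm* per kilobase stayed at 0.298 to 0.410 times that of *Igkc*.

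*Jchain* reached 1 CPM in liver only in vehicle-treated GRmKO mice, at 1.11 CPM, beside 0.478, 0.537 and 0.433 CPM in the vehicle- and CORT-treated GRf/f and the CORT-treated GRmKO mice. The B cell surface genes stayed under 1 CPM and were therefore not called, although each was lowest with CORT. *Cd79a* stood at 0.765 CPM, a listed 0, 0.774 and 0.0482 CPM, which makes it 5.22-fold lower with CORT in GRf/f mice when the 0 is set to 3 counts, and at least 3.77-fold lower by the limit of the counting interval. *Cd79b* stood at 0.955, 0.0977, 0.724 and 0.0482 CPM. *Ms4a1* stood at 0.669 CPM, a listed 0, 0.485 and 0.048 CPM. *Ighg2b* and *Ighg2c* were at or under 0.434 and 0.145 CPM. Of the 22 further B cell genes, 1 of 3 assessed was higher and 1 was lower with CORT in GRf/f mice. In GRmKO mice 1 of 2 was higher and none was lower. Their sums were 7.65, 24.5, 9.19 and 7.04 CPM in vehicle- and CORT-treated GRf/f and then GRmKO mice, so this list did not share the direction of *Ighm* and *Igkc* in GRf/f mice.

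With CORT in liver, 2 of 2 assessed genes were lower in GRf/f mice, where 7.67% of 11316 tested genes were lower and 7.51% higher, and 2 of 3 in GRmKO mice, where 4.32% of 11330 were lower and 4.39% higher. In GRf/f mice *Ighm* and *Igkc* reached 1 CPM in the vehicle library alone, so their entry into the count depended on that library. The same held for *Jchain* in GRmKO mice. Between genotypes none of 3 assessed genes was called under vehicle, where 2.49% of 11214 tested genes were higher and 2.37% lower, and none of 2 under CORT, where 3.95% of 11207 were higher and 3.57% lower. *Ighm* was 2.25-fold higher (1.17 to 4.57) in CORT-treated GRmKO than GRf/f mice, with a log2 change of 0.78. NOISeq called none of the 8 genes in liver, where it called 5.12% and 2.29% of 12485 genes with CORT in GRf/f and GRmKO mice, and 0.593% and 1.49% between genotypes under vehicle and CORT. Macrophage genes of liver were lower with CORT in 8 of 9 assessed in GRf/f mice and in 2 of 9 in GRmKO mice, and MHC class II genes in 6 of 7 in both. Of 8 genes of leukocytes in general, 7 of 7 assessed were lower in GRf/f and 4 of 7 in GRmKO mice. Red cell genes were lower with CORT in 4 of 5 in GRf/f mice, and none of 5 was called in GRmKO mice. Under CORT, 4 of 5 were higher in GRmKO than in GRf/f mice. Red cell sums were 1020, 446, 664 and 1120 CPM in vehicle- and CORT-treated GRf/f and then GRmKO mice. The part of these genes in the *Ighm* and *Igkc* values was not tested.

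**Figure D4:**
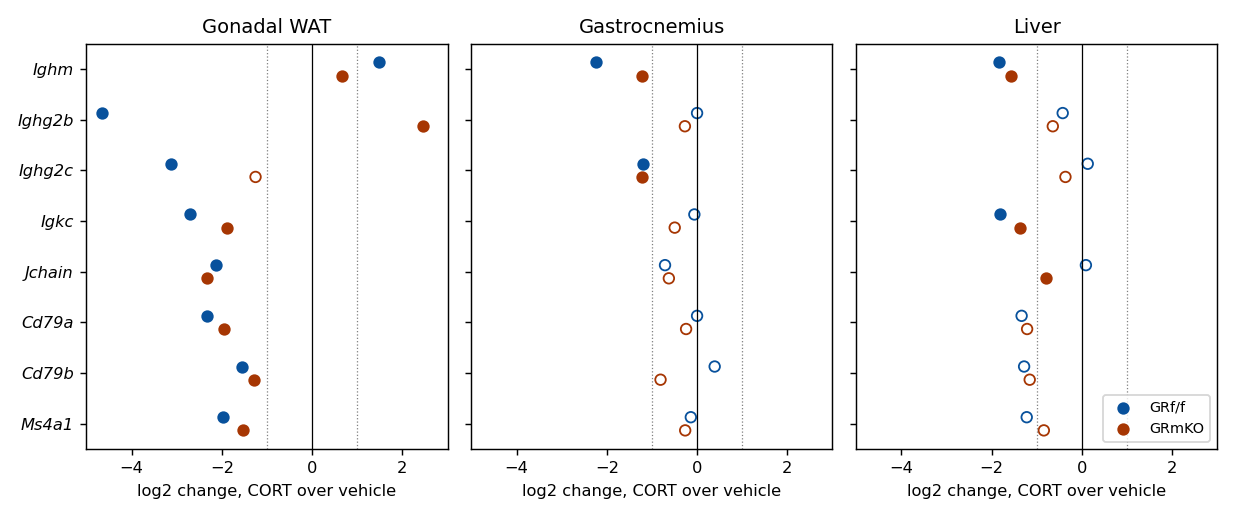
The plot shows the log2 change with CORT of each gene in the 3 tissues, blue for GRf/f and brown for GRmKO mice, with filled points where the higher library reached 1 CPM, open points where it did not, and dotted lines at a log2 change of 1 in either direction. *Ighm* lies to the right of 0 in gonadal WAT, at 1.47 and 0.67, and to the left in gastrocnemius and liver in both genotypes.

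Set side by side, the CORT change of *Ighm* in GRf/f mice was 1.47 on the log2 scale in gonadal WAT, -2.24 in gastrocnemius and -1.85 in liver, and in GRmKO mice 0.67, -1.23 and -1.57. The gastrocnemius value is listed under a different *Ighm* transcript, which may or may not be the form it measured, and the difference between tissues was not tested because each group is 1 library. *Igkc* was lower with CORT in gonadal WAT and in liver and could not be assessed in gastrocnemius.

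**Figure D5:**
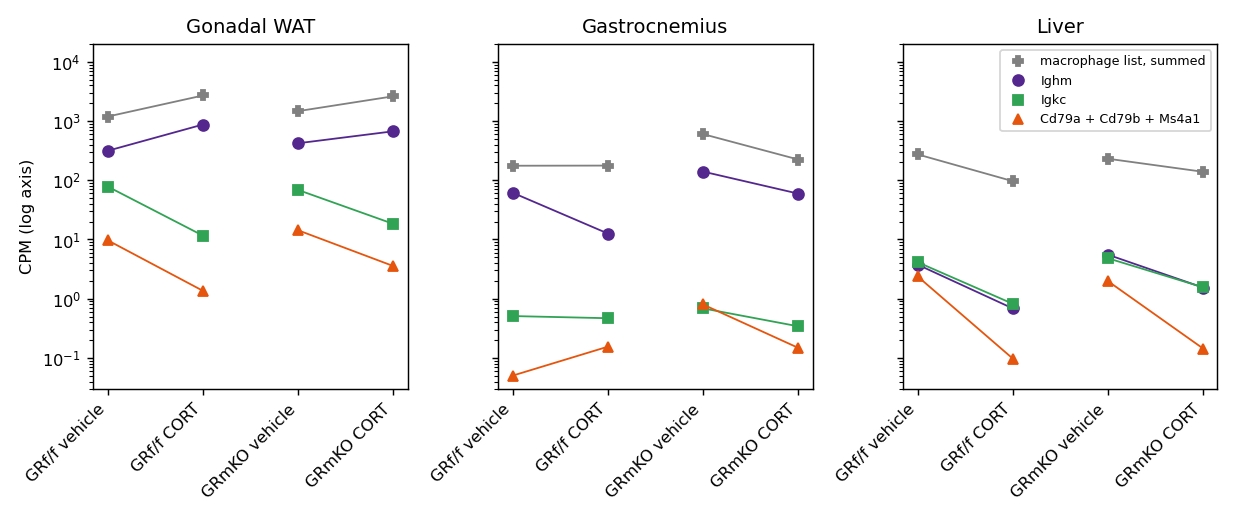
The plot shows, on a log axis of CPM, *Ighm*, *Igkc*, the sum of *Cd79a*, *Cd79b* and *Ms4a1*, and the sum of 10 macrophage genes in each library of the 3 tissues, with lines joining vehicle and CORT of 1 genotype. In gonadal WAT the *Ighm* and macrophage points lie higher and the *Igkc* and B cell points lower at CORT than at vehicle, and in liver all 4 lie lower.

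Genes that varied like a member were ranked by the root mean square difference of log2 values, centred within each tissue, over the 12 libraries and among 12807 genes with a mean of at least 1 CPM in gonadal WAT. Those most like *Cd79a* were *Nkg7*, *Ms4a4b*, *Ces1f*, *Rsad2* and *Cd3g*, at 0.23 to 0.29, of which *Nkg7*, *Ms4a4b* and *Cd3g* are genes of T cells and natural killer cells. Those most like *Igkc* were *Gja4*, *Ushbp1*, *Ccl5*, *Pcsk4* and *Per3*, at 0.25 to 0.28, and *Gja4* is a connexin of arterial endothelium. For *Ighm*, a ranking added after its values had been seen, they were *Myo1f*, *Pla2g4a*, *Lgmn*, *Col14a1* and *Pira2*, at 0.33 to 0.43. *Myo1f*, a myosin of myeloid cells, stood at 11.9, 25.7, 13.8 and 25.3 CPM in gonadal WAT. These rankings describe likeness over libraries that share tissues and treatments. In gastrocnemius *Igkc* stayed at 0.342 to 0.687 CPM and *Cd79a* at or under 0.150 CPM. With 0.5 CPM added both varied little there, so their likeness to other genes leans on the other tissues.

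Promoter sequence from RefSeq (GRCm38.p6), 250 bases before to 50 bases after the start, was at hand for 2 of the 8 genes, *Jchain* and *Cd79a*. Neither held the octamer ATGCAAAT, bound by OCT1 and OCT2, or the palindromic consensus of the glucocorticoid response element, on either strand. Of 32851 promoters in the table, 1.74% held the octamer and 0.475% the response element.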

How the data were processed

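RNA from pools of 3 mice was sequenced in 12 libraries as paired 100-base reads. The authors quantified reads with Salmon 1.2.1 against GENCODE M20 protein-coding transcripts of mm10 and imported them with tximport in R 3.5.0 on the length-scaled scale, so the deposited values are expected counts (estimated counts) without scaling between libraries. Where a gene name recurred, the authors retained only its most abundant entry, and each was treated here as the transcript whose identifier it carries. Whether values had been summed over genes beforehand was not settled. All identifiers matched GENCODE M21.

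CPM were expected counts over the library total, with 95% Wilson intervals, and ratios carry 95% exact (Clopper-Pearson) intervals on rounded counts. Both cover counting error only. A gene was called at a log2 change of at least 1 after adding 0.5 CPM, with at least 1 CPM in the higher library. A 0 was set to 3 counts for lower bounds. Each group was 1 library, so no test between conditions was made. CORT was compared with vehicle in each genotype and GRmKO with GRf/f under each treatment, within a tissue only, since the retained transcript could differ between tissues. As alternatives, TMM factors (edgeR 4.0.16 in R 4.3.3), median-of-ratios factors, other added values and filters, and NOISeq without replicates, the authors' method, were used. NOISeq simulated 5 technical samples at 0.2 of the depth with a variability of 0.02, called at a probability of at least 0.9, and took only genes detected in each of the 4 libraries. It was coded in Python 3.11.15 (scipy 1.17.1, numba 0.67.0, pandas 2.3.3, numpy 2.4.6), and matplotlib 3.10.9 drew the figures. The calling code was also run on simulated counts with known changes. These carried counting error only, so they cannot show how often differences between mice give a false call. No change was simulated in genes as low as *Cd79a*, *Cd79b* and *Ms4a1* in gonadal WAT. From each list of other genes, up to 4 with the largest called CORT change in gonadal WAT and the 2 most abundant were eligible to be named. *Cd74*, *Alb* and *Lyz2* meet this rule. The 8 genes and the lists were chosen with earlier results of these data known.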

Additional observations from a re-analysis of the deposited data

Results flagged for a closer look

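The log2 change of *Ighm* with CORT in GRf/f mice was 1.47 in gonadal WAT but -2.24 in gastrocnemius and -1.85 in liver, so the same treatment gave calls in opposite directions between tissues. With CORT in gonadal WAT, *Ighg2b* changed by -4.65 in GRf/f mice and by 2.46 in GRmKO mice on the log2 scale, calls in opposite directions between genotypes. The same 4 libraries gave, for GRmKO against GRf/f mice, a log2 change of *Ighg2b* of -3.88 under vehicle and 3.23 under CORT. The log2 change of *Ighg2c* in vehicle-treated GRmKO against GRf/f mice was -3.11 in gonadal WAT and 2.61 in gastrocnemius. None of these differences was tested, because each group is 1 library, and each of the *Ighg2b* contrasts rests on the same pair of high libraries.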

How the results depend on the processing

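Under TMM and median-of-ratios factors, all 96 log2 changes of the 8 genes kept their call, and all kept their direction except that of *Cd79a* between genotypes under vehicle in liver, which was 0.01 and became -0.0028 and -0.0065. TMM moved the median of all tested genes from -0.10 to 0.05 with CORT in gastrocnemius of GRmKO mice, its largest shift, and from -0.13 to -0.01 in gonadal WAT. Adding 2 CPM instead of 0.5 ended 7 calls, those of *Cd79b* and *Ms4a1* with CORT in gonadal WAT of both genotypes, of *Ighg2c* with CORT in gastrocnemius of both, and of *Igkc* with CORT in liver of GRmKO mice, leaving 1 of the 8 genes in each of the last 3 comparisons. Adding 0.1 CPM called 2 of the 8 between genotypes under CORT in gonadal WAT, 1 between genotypes under each treatment in liver, and 3 with CORT in liver of GRmKO mice, *Jchain* having been added at -1.18. Without a filter, 3 of the 8 were called between genotypes under CORT in gonadal WAT, and with CORT in liver 5 in GRf/f and 4 in GRmKO mice. With at least 5 CPM in the higher library, 5 of the 8 were called with CORT in gonadal WAT of GRf/f mice, 1 in gastrocnemius with CORT in GRf/f mice and 1 between genotypes under CORT, and 0 and 1 in liver with CORT. NOISeq called 5 of the 8 genes with CORT in gonadal WAT of GRf/f mice, 2 in GRmKO mice and 0 between genotypes under CORT. It called 1 of them in gastrocnemius, *Ighm*, in both CORT comparisons and between genotypes under CORT, and 0 in liver in both CORT comparisons.

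The share of all tested genes called, for CORT in GRf/f, CORT in GRmKO, genotype under vehicle and genotype under CORT in turn, was 16.7%, 11.8%, 4.15% and 4.65% in gonadal WAT, 11.1%, 9.73%, 11% and 12.9% in gastrocnemius, and 15.2%, 8.7%, 4.86% and 7.52% in liver. With 2 CPM added it was 10.4%, 6.38%, 2.15% and 2.13%, then 6.15%, 4.51%, 5.75% and 6.93%, and 8.69%, 4.87%, 2.46% and 3.62%. The filter of 5 CPM tests fewer genes, and it gave 8.75%, 2.3% and 2.48% in the last 3 comparisons of gonadal WAT, 8.3%, 6.3%, 8.04% and 9.59% in gastrocnemius, and 12%, 6.27%, 2.91% and 4.83% in liver. NOISeq gave 7.27%, 4.14%, 0.739% and 0.668%, then 3.51%, 2.01%, 3.18% and 3.91%, and 5.12%, 2.29%, 0.593% and 1.49%.

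No paired analysis was possible because each group holds 1 library, and for the same reason no library was left out. Depth limited the values under 1 CPM, which rest on at most 20 counts in these libraries.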
